A study of Bos taurus with 20 samples.

Results

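The genes described here are 95 genes of bovine satellite cells that were at least 4-fold lower within 24 h of serum withdrawal and had not regained it by 96 h. They were chosen from 14636 genes that passed a filter on low counts, out of 27607 genes in the table. Levels are CPM, a gene's reads relative to all reads of its library, on library sizes scaled by TMM, a method that sets the bulk of genes level between libraries, and each time point is the mean of 4 libraries plus 0.1 CPM. A gene was a member if its level at 0 h was at least 2 CPM, if its levels at 24 h and at 96 h were each at least 4-fold lower, and if its level at 96 h stayed under 2 times that at 24 h and under 1.5 times that at 72 h. These choices used the levels measured in the groups of 0, 24, 72 and 96 h, so the levels and falls of the members in the same libraries are descriptions and carry no test. The level at 48 h was not used.

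The study followed muscle progenitors of the Belgian Blue breed, labelled as satellite cells, by polyA RNA sequencing. The 0 h group was grown on collagen-coated flasks in medium with 20% fetal bovine serum, and the groups at 24, 48, 72 and 96 h had been moved to differentiation medium with 2% serum for that time. Each of the 5 groups had 4 biological replicates, A to D, with A and B in batch 1 and C and D in batch 2 per the labels. The labels do not state the number of animals behind them. Among the samples there is no culture kept in 20% serum for the same times, so time in culture and serum withdrawal cannot be told apart. RNA was taken from whole cultures, so fewer cells of a type and less RNA per cell cannot be told apart either.

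Satellite cells are the stem cells of skeletal muscle. Growth factors in serum keep them dividing, and when serum is withdrawn they leave the cell cycle, switch on the muscle programme and fuse into myotubes. Transcripts that depend on growth factor signalling and are short-lived are known to drop soon after such a change. The table identifies genes by Ensembl cattle identifiers alone, and 0 of these were paired with a symbol in the gene table used here, so the roles of the members, markers of satellite cells or other cell types, and sequences are not given. The member with the highest level at 0 h and the member with the largest fall by 24 h, with 0.1 CPM added, are named by identifier, and other members are given by their rank in CPM at 0 h. CPM are not corrected for gene length, so this rank orders reads and not transcripts.

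Total counts ranged from 21100797 to 41998509 per library. The median member deviated from its time point's mean by at most 0.15 on the log2 scale in any library, with the largest deviation, upwards, in replicate D at 24 h. Without that library the rule found 99 genes, among them all 95 members.

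The members together lost most of their reads in the first day. Their summed level of 15549 ± 718 CPM in growing cells dropped to 1998 ± 183 CPM by 24 h and 1292 ± 28.9 CPM by 48 h, and stood at 1085 ± 34.4 CPM after 72 h and 1197 ± 70.9 CPM after 96 h (SD over 4 libraries each). The libraries at 0 h lay between 14753 and 16472 CPM, and those at 24 h between 1813 and 2250 CPM. The rule required a fall in every member between these groups, so nothing is read from the gap. As a share of all counts, the members held 1.75 ± 0.0423% before serum withdrawal, 0.237 ± 0.0218% one day later and 0.102 ± 0.00648% by the end (SD over 4 libraries each). Reads were unevenly divided among members. The 3 members with the highest levels at 0 h held 62.5 ± 1.21% of the members' CPM at 0 h and 61.3 ± 1.68% after 96 h (SD over 4 libraries each), so the sum mostly follows those 3 genes.

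The members covered a wide range of levels. At 0 h the mean level ran from 2.05 to 5552 CPM with a median of 17.3 CPM. There were 21 members at 100 CPM or more, 38 between 10 and 100 CPM and 36 under 10 CPM. The median level had dropped to 1.95 CPM by 24 h, then to 1.03 CPM by 48 h, 0.854 CPM by 72 h and 0.743 CPM by 96 h. The number of members under 1 CPM went from 0 in growing cells to 34 by 24 h and 46 by 48 h, and reached 50 after 72 h and 52 after 96 h. Reads from the members did not vanish: every member had at least 1 count among the 4 libraries of each time point, and 6 had at most 3 counts in all at 96 h.

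The median member changed by -2.77 on the log2 scale by 24 h, -3.37 by 48 h, -3.59 by 72 h and -3.81 by 96 h, where the median of all 14636 genes was -0.02, -0.01, -0.02 and 0.00. At 24 h, 36 members were at least 8-fold below 0 h, 12 at least 16-fold and 1 at least 32-fold. At 96 h these numbers were 74, 44 and 19, and 7 members were at least 64-fold below 0 h. Members with high and low levels at 0 h had alike falls by 24 h. The median log2 change was -2.81 for the 21 at 100 CPM or more. It was -2.60 for the 38 in between and -2.78 for the 36 under 10 CPM. The rule kept only falls of at least 4-fold. The added 0.1 CPM shrinks falls most in the last group, with a median of 0.602 CPM at 24 h. The likeness therefore follows in part from these settings. In all 95 members every library at 24 h lay below every library at 0 h, which 29.5% of all genes also showed. The rule used this contrast, so nothing is read from that count.

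**Figure D1:**
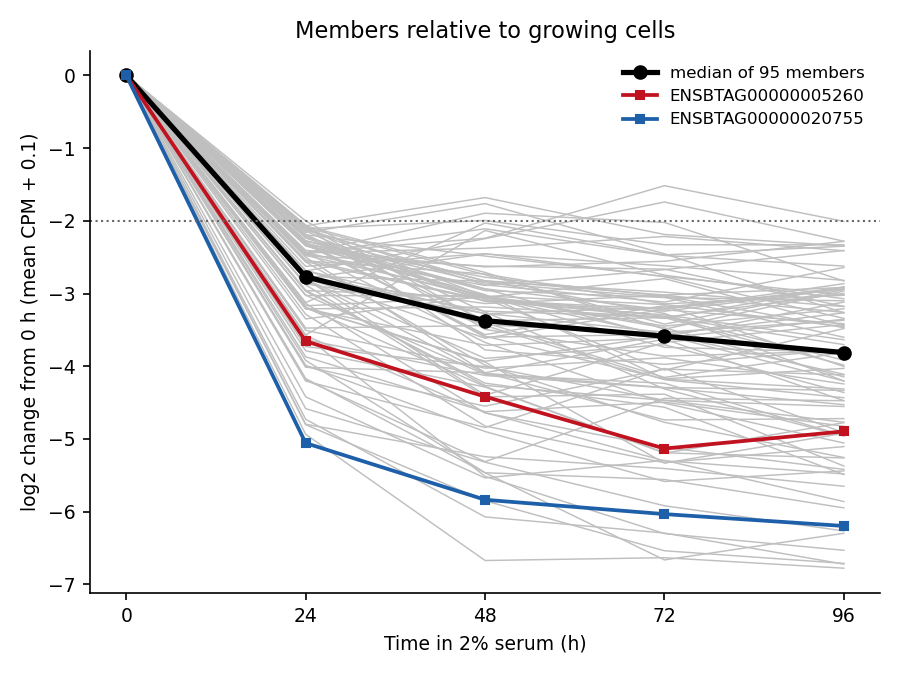
Change of each of the 95 members from its 0 h level (grey lines, log2 of mean CPM plus 0.1, 4 libraries per time point) against hours in 2% serum, with the median (black) and the named members (red and blue). The median drops to -2.77 by 24 h and to -3.81 by 96 h, and the dotted line marks the 4-fold limit, which the rule set at 24 h and 96 h.

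ENSBTAG00000005260 had the highest level of any member at 0 h, with 5768, 5382, 5316 and 5742 CPM in replicates A to D. At 24 h it was at 423, 387, 372 and 579 CPM, and at 48 h at 243, 235, 279 and 281 CPM. It then held 141, 172, 163 and 158 CPM at 72 h and 210, 206, 180 and 149 CPM at 96 h. The 4 libraries at each later time lay far below those of 0 h, and replicate D was the highest at 24 h and the lowest at 96 h. The mean was 12.6-fold below 0 h at 24 h and 29.8-fold below at 96 h.

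ENSBTAG00000020755 had the largest fall by 24 h when 0.1 CPM was added to both levels, 33.3-fold. This place rests on the offset. With none the member ranked 73rd fell more, 55.9-fold against 47.5-fold, and with 0.5 CPM the member ranked 27th did, 25.4-fold against 15.5-fold. It was at 13.1, 10.2, 8.27 and 11.5 CPM in replicates A to D at 0 h and at 0.189, 0.264, 0.170 and 0.284 CPM at 24 h. Those later values are 6, 8, 5 and 9 counts, so a gene with more than 200 counts in every 0 h library was near the limit of detection within a day. At 96 h it had 2, 2, 0 and 1 counts. Its further decline cannot be resolved at this depth.

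**Figure D2:**
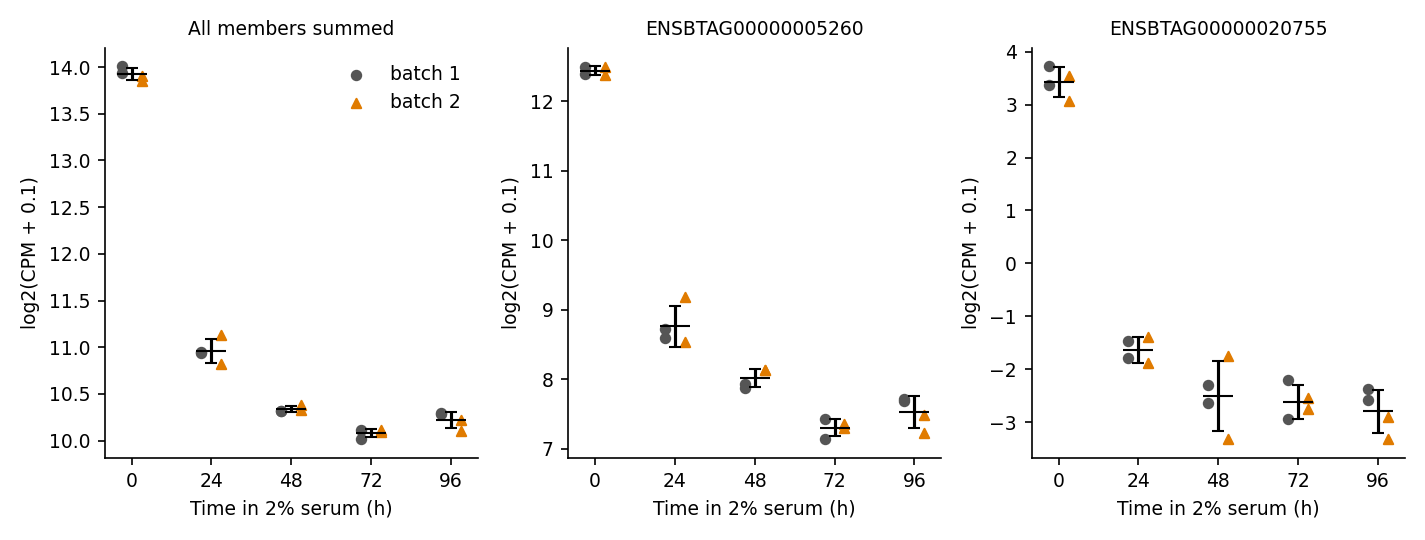
Level in each of the 20 libraries (log2 of CPM plus 0.1) against hours in 2% serum for all members summed and for the named members, with batch 1 as circles, batch 2 as triangles, and the mean and SD of 4 libraries in black. The 4 libraries of 0 h stand above all later ones in each panel, and the spread of ENSBTAG00000020755 at 48 h and later comes with 0 to 5 counts per library.

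The next 4 members by level differed in the size of the fall and in what followed. The member ranked 2nd had 1982 to 2441 CPM at 0 h, 340 to 411 CPM at 24 h, 247 to 272 CPM after 48 h, 208 to 247 CPM after 72 h and 260 to 305 CPM after 96 h over 4 libraries each. The member ranked 3rd had 1817 to 2173 CPM at 0 h, 295 to 369 CPM at 24 h, 222 to 242 CPM after 48 h, 192 to 222 CPM after 72 h and 238 to 267 CPM after 96 h. On TMM-scaled levels both were lowest at 72 h, with the 4 libraries at 96 h above the 4 at 72 h. This order was not tested with library sizes alone. The member ranked 4th went from 704 to 767 CPM at 0 h to 143 to 151 CPM at 24 h and 80.2 to 91.1 CPM at 96 h, with the 72 h and 96 h libraries overlapping. The member ranked 5th had a deeper fall, from 527 to 685 CPM at 0 h to 32.6 to 41.5 CPM at 24 h and 11.2 to 16.8 CPM at 96 h.

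The members split by what happened after the first day. Relative to 24 h, the mean at 96 h was at least 2-fold lower in 45 members and at least 4-fold lower in 11, within 1.5-fold in 27, and higher in 9. A decline at each of the 4 steps was seen in 35 members. The lowest level was reached on the last day in 56 members, after 72 h in 24, after 48 h in 10 and within the first day in 5. Of the log2 fall between 0 h and 96 h, the median member had completed 74.5% by 24 h and 89.2% by 48 h. In 44 members at least 75% was complete by 24 h, and in 3 less than 50%. These shares were not tested, because the rule used both ends of them.

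The 3 members with less than 50% by 24 h show the slow end. The member ranked 58th had 9.94 to 11.6 CPM at 0 h, 1.86 to 2.74 CPM at 24 h, 0.840 to 1.40 CPM after 48 h, 0.319 to 0.619 CPM after 72 h and 0.0932 to 0.453 CPM after 96 h. It had completed 43.1% of its log2 fall by 24 h, and the libraries of neighbouring times overlapped only between 72 h and 96 h. The members ranked 21st and 23rd had completed 48.2% and 48.8%, with means going from 104 CPM at 0 h to 19.1 CPM at 24 h and 3.03 CPM at 96 h, and from 93.9 to 15.8 and 2.36 CPM. By contrast, the member ranked 12th had 180 to 231 CPM at 0 h and between 16.1 and 27.3 CPM in all 16 later libraries. Its libraries at 48 h, 23.4 to 27.3 CPM, lay above those at 24 h, 19.9 to 20.8 CPM.

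**Figure D3:**
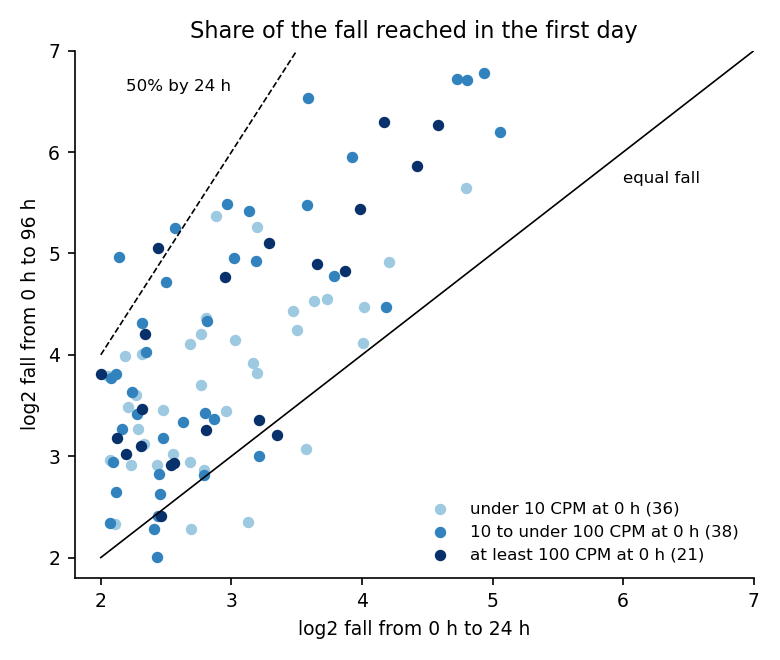
Log2 fall of each member from 0 h to 24 h (horizontal) against that from 0 h to 96 h (vertical), coloured by level at 0 h, with lines for an equal fall and for 50% of the fall by 24 h. The 9 members below the solid line were higher at 96 h than at 24 h, and 3 members lie above the dashed line.

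To measure the loss in libraries that had not chosen the genes, the same rule was applied to one batch and the chosen genes were tested in the other. Batch 1 alone chose 95 genes and batch 2 alone chose 94, of which 77 were chosen by both, 81.1% and 81.9% of each list. All 77 were members, and 2 members were chosen by neither batch alone. Across the 95 members the log2 changes by 24 h in batch 1 and batch 2 had a Pearson correlation of 0.926 and a Spearman correlation of 0.877, as a description over genes that were chosen on both batches.

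The first-day loss was present in the batch that had not been used. Of the 95 genes chosen in batch 1, 95 were lower at 24 h than at 0 h in batch 2 (edgeR quasi-likelihood F-test, Benjamini-Hochberg adjusted p under 0.05 over all genes), where 25.5% of all genes were called lower. Of the 94 genes chosen in batch 2, 94 were lower in batch 1, where 31.4% of all genes were. The median log2 fold changes were -2.70 and -2.99, against -0.02 and -0.03 over all genes. Fewer met the full size. In mean CPM plus 0.1, the rule's measure, 81 of 95 were at least 4-fold lower at 24 h in batch 2 and 86 of 94 in batch 1. The smallest falls were 2.65-fold and 2.00-fold. By the edgeR estimates, 82 and 88 were at least 4-fold lower. At 96 h, 94 of 95 and 92 of 94 were at least 4-fold below 0 h by the rule's measure.

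Both named genes were chosen in each batch. They were named from their levels in all 20 libraries, so their first-day changes are given per batch with no test. The log2 fold change of ENSBTAG00000005260 was -3.55 in batch 2 and -3.78 in batch 1. That of ENSBTAG00000020755 was -5.41 in batch 2 and -5.66 in batch 1.

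On the second day most of the genes fell further. Of the 95 genes chosen in batch 1, 51 (53.7%) were lower at 48 h than at 24 h in batch 2, 1 (1.05%) was higher and 43 were not called, where 23.4% of all genes were lower and 25.0% higher (edgeR adjusted p under 0.05). Of the 94 chosen in batch 2, 55 (58.5%) were lower in batch 1, 6 (6.38%) were higher and 33 were not called, where 26.8% of all genes were lower and 27.8% higher. The rule set no limit at 48 h, but its limits at 96 h kept out genes that returned, so few rises follow in part from the choice. The median log2 fold changes were -0.80 and -0.67, smaller than those of the first day, and 38 of the 77 genes chosen by both batches were called lower in both tests, as 20.1% of all genes were.

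ENSBTAG00000005260 was lower in both, with log2 fold changes of -0.76 in batch 2 (standard error 0.18, edgeR adjusted p = 0.00558) and -0.76 in batch 1 (standard error 0.09, edgeR adjusted p = 6.03e-06). ENSBTAG00000020755 stood at -1.03 and -1.39, from 14 counts at 24 h in either batch, with no test because its level at 24 h had been used to name it. The number of calls followed depth. In batch 2, 24 of 30 genes with at least 500 counts at 24 h were called lower, against 6 of 25 with under 50 counts, where 28.4% and 4.60% of all genes at those counts were. The median log2 fold changes were -0.74 and -1.03 with median standard errors of 0.13 and 0.60. In batch 1, 22 of 25 and 8 of 30 were called lower, where 31.0% and 6.48% of all genes at those counts were, with medians of -0.66 and -0.65. Genes of low count that were not called therefore cannot be said to have stopped falling.

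**Figure D4:**
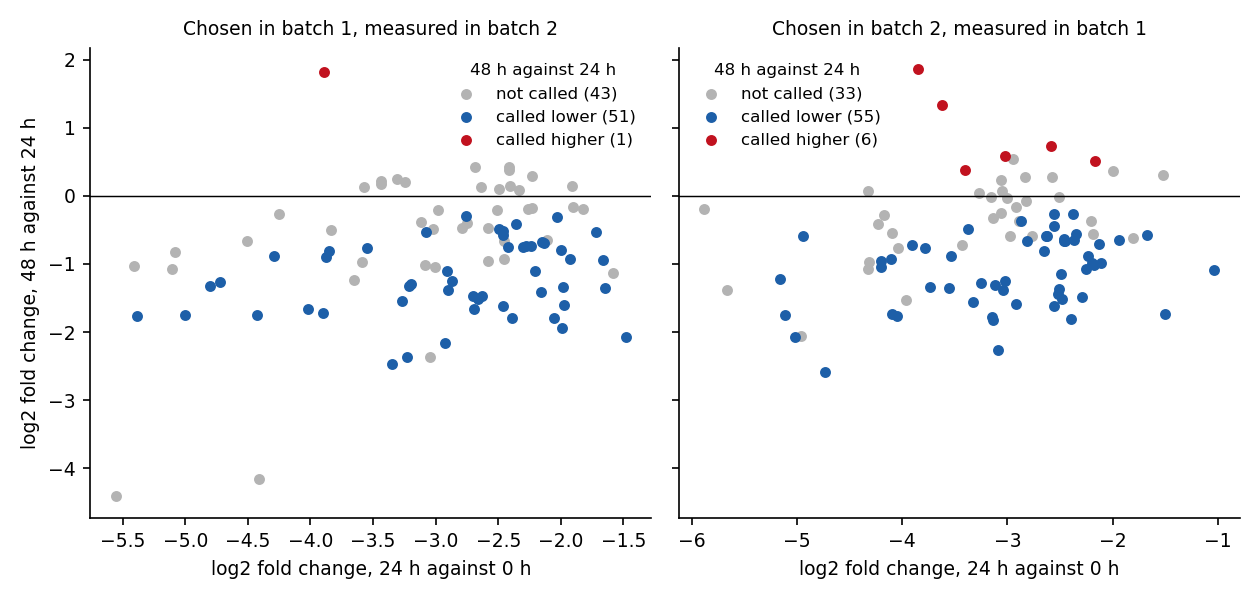
Log2 fold change of 24 h against 0 h (horizontal) and of 48 h against 24 h (vertical) for genes chosen by the rule in one batch, with values from the other, coloured by the edgeR call for 48 h against 24 h. In batch 2, 51 of 95 genes were called lower and 1 higher, and in batch 1, 55 of 94 were lower and 6 higher.

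A single gene was called higher at 48 h in both tests, the member ranked 60th. Its levels in replicates A to D were 10.6, 8.96, 9.21 and 7.80 CPM at 0 h and 0.883, 0.693, 0.510 and 0.630 CPM at 24 h. At 48 h they were 1.96, 2.02, 1.93 and 2.13 CPM, and at 96 h 0.959, 0.745, 1.08 and 1.22 CPM. Every library at 48 h lay above those at 24 h and 96 h and well below those at 0 h. The log2 fold change from 24 h to 48 h was 1.82 in batch 2 (standard error 0.27, edgeR adjusted p = 5.99e-05) and 1.33 in batch 1 (standard error 0.23, edgeR adjusted p = 0.000258). The member ranked 87th, which batch 1 had not chosen and which was therefore not tested in batch 2, rose in batch 1 by 1.86 (standard error 0.36, edgeR adjusted p = 0.000618), from 13 to 55 counts, and the 4 others called higher in batch 1 changed by 0.38 to 0.74.

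Over the last 2 days fewer genes were called. Median standard errors were 0.32 in both batches, against 0.27 for the second day, so genes not called cannot be said to have held their level. Of the 95 genes chosen in batch 1, 30 (31.6%) were lower at 96 h than at 48 h in batch 2 and 4 (4.21%) were higher, where 14.2% of all genes were lower and 15.1% higher (edgeR adjusted p under 0.05). Of the 94 chosen in batch 2, 32 (34.0%) were lower in batch 1 and 9 (9.57%) higher, where 22.0% and 22.8% of all genes were. The median log2 fold changes were -0.56 and -0.37. The rule limited the level at 96 h itself, so the few rises and the surplus of falls follow in part from the choice. Genes called lower on the second day and again over these days numbered 20 in each batch, where 6.53% of all genes in batch 2 and 8.57% in batch 1 were. Some counts from 48 h to 96 h were lower when a library was omitted. Each such omission left a single library at its time point in that batch, and fewer of all genes were then called as well. In batch 2, 18 were lower without replicate D at 48 h, beside 8.20% of all genes. In batch 1, 20 were lower and 4 higher without replicate A at 48 h, beside 14.9% and 15.6% of all genes. There, 21 were lower without replicate A at 96 h, beside 16.9%, and 5 were higher without replicate B at 48 h or at 96 h, beside 16.7% of all genes in each case.

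ENSBTAG00000005260 fell again from 48 h to 96 h in batch 2, by 0.77 on the log2 scale (standard error 0.18, edgeR adjusted p = 0.0102), and had a value of -0.20 in batch 1 (standard error 0.09, edgeR adjusted p = 0.0752). The members ranked 2nd and 3rd rose in batch 1, by 0.27 (standard error 0.08, edgeR adjusted p = 0.0124) and 0.24 (standard error 0.06, edgeR adjusted p = 0.00857). In batch 2 they had values of 0.08 and 0.10 that did not pass (edgeR adjusted p = 0.562 and 0.505). Over all libraries, the TMM factors of replicates A and B were 0.972 and 0.976 at 48 h and 0.861 and 0.861 at 96 h. How far these rises rest on that scaling was not tested. The member ranked 5th fell in both, by 0.72 in batch 2 (standard error 0.14, edgeR adjusted p = 0.00118) and by 0.38 in batch 1 (standard error 0.14, edgeR adjusted p = 0.0412).

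The rule averaged over batches, so a difference between batches was open to a test in all 20 libraries. In time course, 0 of the 95 members were called different between batches (edgeR quasi-likelihood F-test of batch by time terms, smallest adjusted p = 0.505). Of all genes, 1 was called (0.00683%). With few libraries per batch and time point, members not called cannot be said to have the same time course in both batches. At an unadjusted p under 0.05, 9 members passed (9.47%), beside 9.72% of all genes. DESeq2 called 1 member and 22 of all genes (0.150%), and gave 26 members no adjusted p. Without replicate B at 0 h edgeR called 3 members and 40 of all genes (0.273%). In level, 5 members were lower and 2 higher in batch 2 (edgeR adjusted p under 0.05), where 8.36% of all genes were lower and 10.9% higher. The differences between batches lay between -0.55 and 0.41 on the log2 scale, and no member was 2-fold apart. Without replicate A at 0 h the level differed in 13 members and in 29.4% of all genes, and without replicate C at 0 h in 11 members and in 25.6% of all genes.

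Replicates of the members spread more after the loss. The median coefficient of variation over 4 libraries was 10.9% in growing cells, 17.5% after 24 h, 22.1% after 48 h, 21.9% after 72 h and 20.4% after 96 h. Over all genes it was 9.27%, 8.78%, 9.96%, 11.0% and 9.16%. The members' levels, and so their counts, were lower at the later times, and the part of low counts in this spread was not tested.

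Few of the genes that were lost in the end had a loss of this size in the first day. Of 11661 genes with at least 2 CPM at 0 h, 657 were at least 4-fold lower at 96 h, and 105 of these already were at 24 h. The other 552 had a median log2 change of -0.89 by 24 h, -1.93 by 48 h and -2.59 by 96 h. In total 119 genes were at least 4-fold lower at 24 h, and 24 of them were not members. Of those 24, 14 were less than 4-fold below 0 h at 96 h, 5 were at least 2 times their 24 h level and 17 at least 1.5 times their 72 h level, with some in more than one of these groups. Their median log2 change was -2.37 by 24 h, -2.89 by 72 h and -1.79 by 96 h. These sets were defined by the same levels, so the differences between them carry no test.

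The limit at 24 h had genes close on either side. The 3 members nearest to it were 4.003-fold, 4.17-fold and 4.195-fold below 0 h at 24 h, with means of 238, 4.84 and 30.8 CPM at 0 h and 59.5, 1.09 and 7.26 CPM at 24 h. The 3 genes that met every other condition and came nearest from outside were 3.89-fold, 3.86-fold and 3.80-fold below, with 9.43, 85.1 and 24.1 CPM at 0 h and 2.35, 21.9 and 6.27 CPM at 24 h. The member nearest to the limit, ranked 9th, had 48.3 to 77.6 CPM at 24 h over its 4 libraries, a spread wider than its distance from the limit.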

How the data were processed

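The stranded mRNA libraries were read to 75 bp, per the labels' protocols. The submitters' processing notes name STAR 2.7, featureCounts and the genome build bosTau9. Their settings, the use of strand and the annotation are not stated there. The authors deposited raw counts per gene, 1 column per library. The tools here were R 4.3.3, edgeR 4.0.16 and DESeq2 1.42.0. The filter on low counts was filterByExpr by time point (a count of 10, a total of 15), and it kept at least 99.967% of each library's counts. For the crossed tests, a robust quasi-likelihood model with time as its term was fitted to the 10 libraries of the batch that had not chosen the genes, and the batch tests used all 20 libraries. All tests were two-sided, p-values were adjusted over 14636 genes by Benjamini-Hochberg, and standard errors are the size of the log2 fold change over the root of F. The test and the rule were checked on simulated data. Members and lists were chosen with earlier results of these data known. Gene lists and cell type markers needed symbols and were not applied. Without symbols, the rule for names took the member highest at 0 h and the member with the largest log2 ratio of 0 h to 24 h, 0.1 CPM added. Other members described by rank were chosen after their values were seen. The test of batch level was also added later. Alternatives were RLE scaling, library sizes alone, no filter, other limits and offsets of the rule, DESeq2, the replicate letter as a block, and omission of single libraries.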

Additional observations from a re-analysis of the deposited data

Results flagged for a closer look

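Dixon's test on 35 groups of 4 libraries marked 3 in which a single library stood apart, where about 1 in 20 would be marked by chance. The summed members were at 1335 CPM in replicate D at 48 h, and the others lay between 1273 and 1281 CPM. The member ranked 2nd was at 208 CPM in replicate A at 72 h, with the others between 242 and 247 CPM. The member ranked 3rd was at 238 CPM in replicate D at 96 h, with the others between 265 and 267 CPM.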

How the results depend on the processing

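The rule found 168 genes with a limit of 3-fold, all 95 members among them, and 34 with a limit of 8-fold. It found 80 with an offset of 0.5 CPM, 77 of them members. With that offset the log2 change of ENSBTAG00000020755 was -3.96 by 24 h and -0.41 from 24 h to 96 h. The rule found 93 to 99 without single libraries. With library sizes alone, which moved the median of all genes by -0.31 on the log2 scale from 24 h to 48 h and by -0.40 from 0 h to 96 h, it found 97, with 92 members. In batch 1, 3 genes were then higher at 48 h than at 24 h and 3 higher at 96 h than at 48 h. Beside them, 16.7% and 13.3% of all genes were higher, against 27.8% and 22.8% with TMM. The summed members' log2 change from 24 h to 96 h was -1.21, against -0.74 with TMM. Without single libraries the crossed tests called, in batch 2 and in batch 1, 94 to 95 and 93 to 94 genes lower in the first day. On the second day they called 39 to 53 and 43 to 56 lower, and 1 to 1 and 5 to 7 higher. From 48 h to 96 h they called 18 to 32 and 20 to 34 lower, and 3 to 5 and 4 to 9 higher. The batch by time test called 0 to 3 members without single libraries, 9 without the filter on low counts (beside 5.54% of 20846 genes) and 1 with DESeq2. In the crossed tests, each omission left a single library at its time point in the batch tested. The share of all genes called moved with the omitted library as well. At the low end of the ranges called lower after the first day, fewer of all genes were also called lower than with all libraries. The ranges of the crossed tests are therefore not read as a property of the chosen genes. The cause of the differences between settings was not tested.

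Nothing in the labels says that a replicate letter marks a shared culture or animal, so the pairing was not used. Between time points, same-letter libraries had correlations of -0.37 to 0.55 in their deviations (median 0.15), of which 22 of 40 exceeded 0.1, and 7 of 20 libraries were closest to others of their letter. With the replicate block, 2 genes in place of 1 were called higher for 48 h against 24 h in batch 2, where 24.8% of all genes were. The counts of the other crossed tests and of batch by time stayed within 1.5 times.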

Other observations

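The members ranked 2nd and 3rd at 0 h kept a nearly constant ratio to each other. Over the 20 libraries the ratio of their CPM lay between 1.08 and 1.17, and the SD of its log2 was 0.028. Among the 210 pairs of the 21 members at 100 CPM or more at 0 h this was the smallest SD, the next was 0.13, for the members ranked 4th and 18th, and the median was 0.67. The pair was chosen after its values were seen, and the part of reads shared between gene models was not tested.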
